A study of Mus musculus with 6 samples.

Results

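The Zfp genes of the mouse encode zinc finger proteins, in which short folds held by a zinc ion bind DNA, RNA or other proteins. They were chosen by symbol alone, as Zfp followed by digits only, and Zfp36 was left out because it encodes tristetraprolin, an RNA-binding decay factor. Of 18193 named genes on the array 304 were members, and 198 of these had a signal of 100 or more in both arrays without actinomycin D (Act. D) and were measured further, among 9980 such genes in all. The samples were primary mouse embryonic fibroblasts (MEFs) with floxed alleles of CNOT3, a subunit of the CCR4-NOT complex. Control MEFs were infected with a mock retrovirus, and CNOT3-depleted MEFs (CNOT3KD MEFs) with a retrovirus for the Cre recombinase. Both were selected in puromycin for 2 days as mixed infected populations, so each array held RNA of many infected cells and not of 1 clone. Each culture was taken without Act. D (0 h) and after 6 h and 12 h of this inhibitor of transcription, which makes 6 conditions of 1 array each. For control MEFs the genotype in the labels is wild type, while the methods describe mock-infected floxed MEFs, which was taken as right here. Embryo age and mouse strain are not stated there.

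Most mouse Zfp proteins are of the C2H2 type, and many carry a KRAB domain. KRAB zinc finger proteins bind DNA, often in retroelements, and recruit Trim28, which brings in Setdb1 and other enzymes that mark chromatin for silencing. Their genes multiplied in tandem and lie in clusters along the chromosomes. Other members act in ribosome assembly, RNA binding, imprinting, lineage choice or mitosis, so a shared symbol does not mean a shared role. CCR4-NOT removes poly(A) tails, a step that commonly starts mRNA decay. With transcription blocked, the signal left at 6 h and 12 h is given as a percentage of the signal of the same culture at 0 h. It shows how much of each mRNA remained relative to the other mRNA left.

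Cnot3 itself, the gene removed by Cre, had control signals of 436, 193 and 198 at 0, 6 and 12 h, against 239.6, 128 and 82.9 in CNOT3KD MEFs. A second Cnot3 probe set was about level at 0 h, with 204 in control and 227 in CNOT3KD MEFs, and the position of either relative to the deleted exons was not determined here. All 10 fibroblast markers were above the limit, with a summed signal of 130751 in control and 136899 in CNOT3KD MEFs at 0 h. Signals are scaled so that each array has nearly the same trimmed mean, between 494 and 497. A percentage left is therefore relative to the mRNA that remains, and it can exceed 100%. Signals below the 25th percentile of the array, between 13.6 and 19.8, counted as near background, and the percentage left is then given as an upper bound. With 1 array per condition there is no replicate error, no difference below was tested, and each count is set beside the share among all 9980 genes.

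Zfp mRNAs were lost fast in both cultures. The median Zfp gene had 25.8% and 26.3% of its control signal left at 6 h and 12 h, where the median of all genes was 86.7% and 69.3%. In CNOT3KD MEFs the median Zfp gene had 27.2% left at 6 h and 23.1% at 12 h, where the median of all genes was 98.2% and 96.1%. As signals, the Zfp medians of control MEFs were 373, 94.6 and 93.0 at 0, 6 and 12 h, and those of CNOT3KD MEFs 315, 87.8 and 64.9. The 2 cultures thus lay close together for Zfp genes at both times, while the median of all genes was higher in CNOT3KD MEFs.

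**Figure D1:**
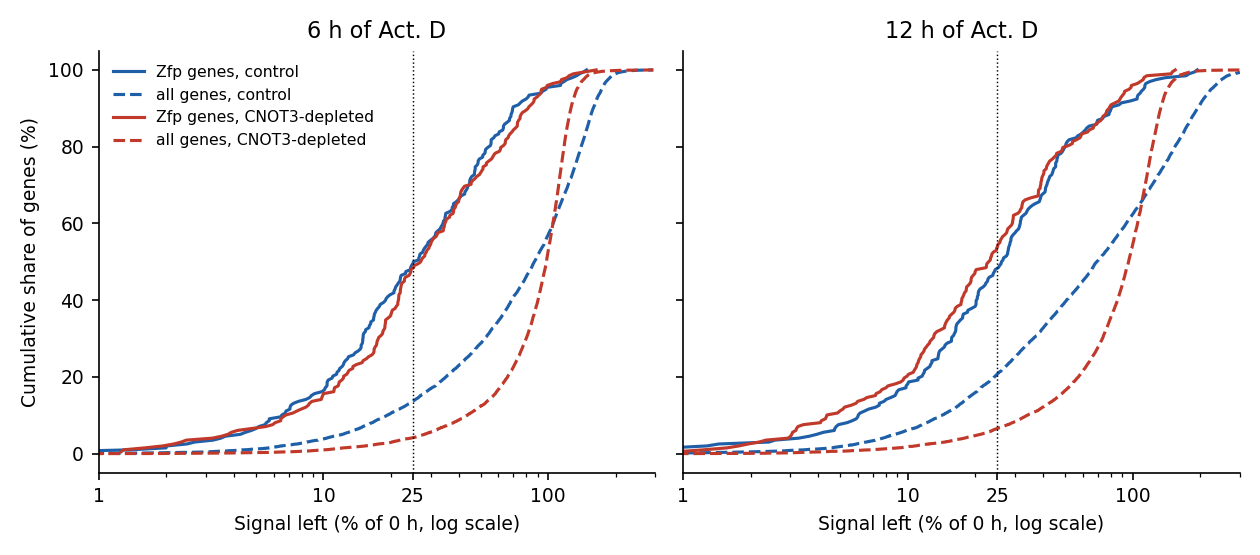
Cumulative share of genes (%, vertical axis) against the signal left after 6 h (left panel) and 12 h (right panel) of Act. D, as a percentage of 0 h on a log scale from 1% to 300%. Solid lines are the 198 Zfp genes and dashed lines all 9980 genes, blue for control and red for CNOT3KD MEFs, and the dotted line is at 25%; the 2 solid lines run close together, while the dashed lines are apart.

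A Zfp gene was counted as fast-lost where 25% or less of its signal was left. At 6 h 98 of 198 Zfp genes were fast-lost in control MEFs (13.7% of all genes) and 95 in CNOT3KD MEFs (4.17% of all genes). At 12 h these were 95 in control MEFs, or 48.0% (20.7% of all genes), and 106 in CNOT3KD MEFs, or 53.5% (6.55% of all genes). At 12 h 77 were fast-lost in both cultures (5.1% of all genes). At both times in both cultures 60 Zfp genes were fast-lost, 30.3% of the members measured, against 2.93% of all genes. Zfp genes made up 1.98% of all genes measured and 20.5% of the 292 genes that were fast-lost in all 4 arrays. From the 25th to the 75th percentile the Zfp genes had between 13.7% and 45.5% left at 12 h in control MEFs and between 11.4% and 41.7% in CNOT3KD MEFs, so the loss was a feature of most members and not of a few. Between 6 h and 12 h the signal went down further for 51.0% of Zfp genes in control MEFs and 70.2% in CNOT3KD MEFs, and for 56.9% and 54.4% of all genes.

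Zfp503, a transcriptional repressor in development, was among the brightest and fastest-lost members. Its control signals were 3092, 113 and 175 at 0, 6 and 12 h, against 2915, 193 and 174 in CNOT3KD MEFs, and the 2 cultures ended level. Its second probe set went from 1101 in control and 1264 in CNOT3KD MEFs at 0 h to 13.6 and 12.7 at 12 h, both near background. Zfp292, which the study followed, had 749, 78.6 and 75.5 in control MEFs and 784, 69.7 and 86.1 in CNOT3KD MEFs. That is 10.5% and 10.1% left in control against 8.89% and 10.98% in CNOT3KD MEFs at the brightest probe set. Of its 3 other probe sets at the limit, one was also alike, with 15.1% left at 12 h in control and 17.8% in CNOT3KD MEFs. The others had less left in CNOT3KD MEFs, with 16.5% against 2.96% and 16.9% against 6.16%, and all 4 were fast-lost at 12 h in both cultures. Zfp871 had 1721, 174 and 172 in control MEFs and 848, 108 and 80.9 in CNOT3KD MEFs. It started lower in CNOT3KD MEFs and had 10.0% and 9.54% left at 12 h at this probe set. At another, 41.1% was left in control and 13.1% in CNOT3KD MEFs.

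The members with the least signal left in control MEFs were Zfp748, Zfp770, Zfp799, Zfp61, Zfp82, Zfp472, Zfp74 and Zfp746. All 8 were near background in at least 1 control array under Act. D. Zfp799 had 452, 2.80 and 22.2 in control MEFs and 234, 3.02 and 12.0 in CNOT3KD MEFs, so that at most 3.33% was left at 6 h in control and at most 6.19% in CNOT3KD MEFs. Zfp748 had at most 5.56% left at 6 h in control and at most 9.30% in CNOT3KD MEFs, from 0 h signals of 271 and 156. Zfp746 had 375, 16.0 and 12.2 in control MEFs and 220.1, 8.28 and 4.80 in CNOT3KD MEFs. For these genes the floor of the array, and not the mRNA, limits how far loss can be followed. Over all 198 measured members, 15 control signals at 6 h and 18 at 12 h were near background, and 14 and 24 of those in CNOT3KD MEFs.

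**Figure D2:**
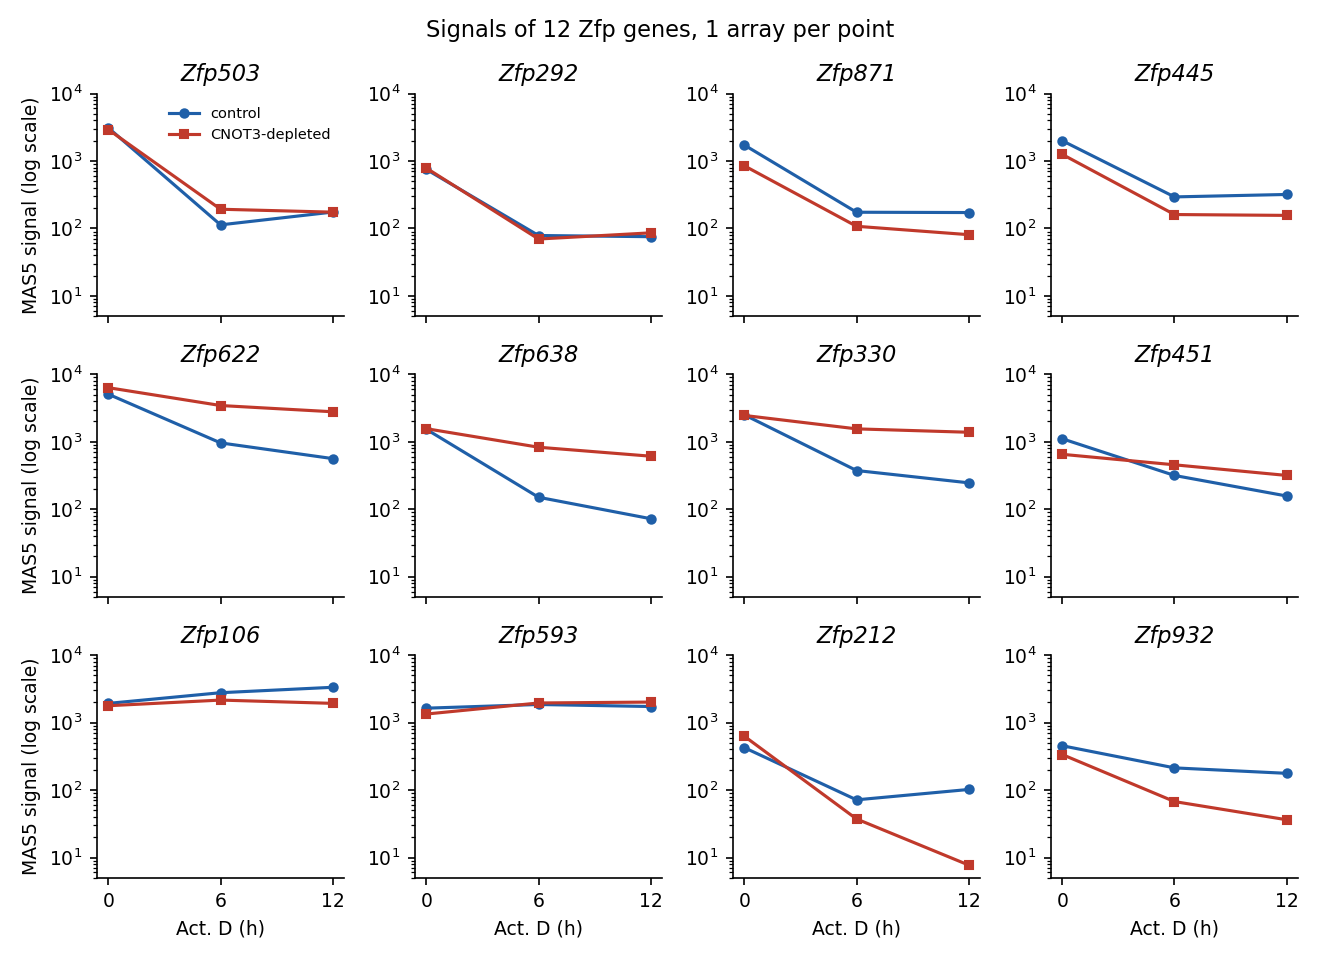
MAS5 signal (log scale) of 12 Zfp genes against hours of Act. D, in control (blue circles) and CNOT3KD MEFs (red squares), with 1 array for each point. Each gene is shown at its brightest probe set. The top row holds genes lost alike in both cultures at that probe set, the middle row genes with more left in CNOT3KD MEFs, and the bottom row 2 genes that stayed high (Zfp106, Zfp593) and 2 with less left in CNOT3KD MEFs (Zfp212, Zfp932).

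The question of the comparison between cultures is whether mRNA loss needs CNOT3. Stabilization is the log2 of the fraction left in CNOT3KD MEFs over that in control MEFs, as the mean of 6 h and 12 h. Its median was 0.01 for Zfp genes and 0.17 for all genes. At 6 h the Zfp median was 0.16 and at 12 h -0.17, whereas over all genes it was 0.10 and 0.19. Stabilization was above 0 for 101 of 198 Zfp genes, 51.0%, against 57.2% of all genes. The range was wide, from -2.95 for Zfp963 to 3.51 for Zfp428, with the 25th and 75th percentile at -0.52 and 0.47, and both ends rest on signals near background. The sign of a median this near 0 is not settled, since it was -0.06 after quantile normalization and 0.50 after scaling to ribosomal protein genes, where that of all genes was 0.66.

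The difference from other genes was plainest among mRNAs that control MEFs lose fast. Of the 95 Zfp genes with 25% or less left at 12 h in control MEFs, 77 were also at 25% or less in CNOT3KD MEFs, which is 81.1%. Of the 2068 genes in all with 25% or less left in control MEFs, 24.6% were so in CNOT3KD MEFs. The 35 Zfp genes with 10% or less left at 12 h in control MEFs had a median of 7.55% left in CNOT3KD MEFs, and the 616 such genes in all had 34.0%. For the 60 Zfp genes with more than 10% and up to 25% left in control, the median in CNOT3KD MEFs was 15.1%, against 57.8% over 1452 genes. For the 63 Zfp genes from 25% to 50% it was 29.2% against 76.4% over 1871 genes. In the class from 50% to 100% it was 47.5% for 24 Zfp genes and 96.1% over 2280 genes. Members and other genes with a like loss in control MEFs thus differed in how much was left in CNOT3KD MEFs in each of these classes. The 145 genes of the whole array at 25% or less in CNOT3KD MEFs alone included 29 Zfp genes, and the 1559 in control alone included 18.

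**Figure D3:**
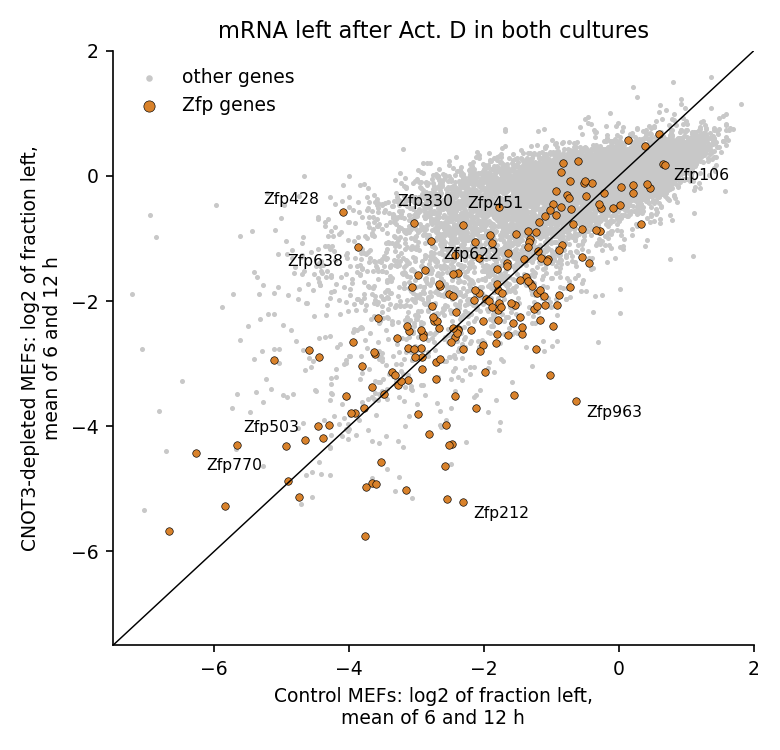
Log2 of the fraction of the 0 h signal left, averaged over 6 h and 12 h, in CNOT3KD MEFs (vertical) against control MEFs (horizontal). Each point is 1 gene, orange for the 198 Zfp genes and grey for the other 9782 genes, and the line marks equal fractions; most Zfp genes follow the line down to low values, where many grey points lie above it, and Zfp428, Zfp638, Zfp330, Zfp622 and Zfp451 lie well above it.

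A gene was counted as lost more slowly in CNOT3KD MEFs if it kept a fraction 2 or more times as large as control MEFs did, at 6 h and at 12 h alike. Of the 198 Zfp genes 12 met this, 6.06%, against a background of 13.8% of all genes. They were Zfp82, Zfp90, Zfp330, Zfp410, Zfp428, Zfp451, Zfp622, Zfp637, Zfp638, Zfp763, Zfp770 and Zfp775, and all 12 were fast-lost at 12 h in control MEFs. The rule was thus met by 12.6% of the 95 Zfp genes fast-lost at 12 h in control MEFs, and by 56.8% of the 2068 such genes in all. Both the choice of these genes and the rule use the control arrays. When the ratio of 6 h to 0 h in CNOT3KD MEFs also had to lie between 0.5 and 2.0, 6 genes were left (11.3% of all genes), namely Zfp330, Zfp410, Zfp428, Zfp451, Zfp622 and Zfp638.

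Zfp622, a factor in maturation of the large ribosomal subunit, was the brightest Zfp gene at 0 h. Its control signals were 5064, 962 and 563 at 0, 6 and 12 h, against 6332, 3445 and 2784 in CNOT3KD MEFs. With 19.0% and 11.1% left in control against 54.4% and 44.0% in CNOT3KD MEFs, its stabilization was 1.75. A second probe set of Zfp622 had 772, 80.9 and 84.9 in control MEFs and 1105, 386 and 360.1 in CNOT3KD MEFs, so it met the rule as well. Zfp638, a nuclear RNA-binding protein that takes part in adipocyte differentiation, had 1529, 151 and 72.4 in control MEFs and 1563, 830.1 and 611 in CNOT3KD MEFs. At this probe set the cultures began level and were far apart by 12 h. There 4.74% was left in control and 39.1% in CNOT3KD MEFs, a stabilization of 2.74. Its second probe set had 9.27% and 40.9% left at 12 h. With the median over probe sets the stabilization of Zfp638 was -0.04 and its log2 fold at 0 h was 0.94. Both its stabilization and its level start thus depend on the probe set. Zfp330, a nucleolar protein, had 2506, 375 and 246 in control MEFs and 2456, 1553 and 1384 in CNOT3KD MEFs, a stabilization of 2.30. It too was level at 0 h, and it had 1 probe set.

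Zfp428 had the highest stabilization of the members. Its signals were 255, 14.6 and 15.3 in control MEFs and 336, 258 and 196 in CNOT3KD MEFs. Both control signals under Act. D were near background, so at most 5.90% and 7.04% was left there, against 76.8% and 58.4% in CNOT3KD MEFs. Zfp410, an activator of the chromatin remodeller gene Chd4, had 1408, 303 and 227 in control MEFs and 1290.1, 684 and 419.9 in CNOT3KD MEFs, a stabilization of 1.16. A second probe set of Zfp410 had 12.7% left at 12 h in control and 26.1% in CNOT3KD MEFs, in the same direction, but was under 2 times at 6 h. Zfp637 had 15.9% and 11.7% left in control MEFs and 46.2% and 27.0% in CNOT3KD MEFs. The last 5, Zfp82, Zfp90, Zfp763, Zfp770 and Zfp775, were dim under Act. D, with 92.5 the highest signal of any of them in CNOT3KD MEFs at 6 h. When signals were held at the 25th percentile of their array, Zfp82, Zfp770 and Zfp775 no longer met the rule.

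Zfp451, a SUMO ligase, gave unlike answers by probe set. At its brightest probe set the signals were 1107, 317 and 157 in control MEFs and 652, 456 and 317 in CNOT3KD MEFs, with 14.2% left at 12 h in control and 48.7% in CNOT3KD MEFs. Another probe set, with 0 h signals of 736 in control and 453 in CNOT3KD MEFs, went the same way. It had 10.8% left at 12 h in control and 41.7% in CNOT3KD MEFs. A further pair of probe sets of the same gene went the other way, with 22.5% in control against 11.05% in CNOT3KD MEFs and 31.0% against 12.6%. At 0 h the first of this pair was at 728 in control and 647 in CNOT3KD MEFs, and the other at 257 and 144. Which transcripts these probe sets read was not determined here.

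With the cultures exchanged, 8 Zfp genes had a fraction left in control at least 2 times that in CNOT3KD MEFs at both times, 4.04% of the members against a background of 0.541%. They were Zfp142, Zfp189, Zfp212, Zfp566, Zfp629, Zfp932, Zfp944 and Zfp963. Zfp932, a silencer of retroelements, had 453, 213 and 177 in control MEFs and 335, 67.5 and 36.3 in CNOT3KD MEFs. It was lower in CNOT3KD MEFs at each time, with 39.0% left at 12 h in control and 10.8% in CNOT3KD MEFs. Zfp212 had 425, 71.6 and 102 in control MEFs and 627, 37.3 and 7.73 in CNOT3KD MEFs, where the 12 h signal was near background and at most 2.16% was left. Zfp963 had a stabilization of -2.95 from 0 h signals of 100.6 and 113, just above the limit, and both its CNOT3KD signals under Act. D were near background. With signals held at the 25th percentile it was -2.36, and that of Zfp212 was -2.49. With the ratio limit applied to control MEFs only Zfp963 was left of the 8, against a background of 0.261%. None of the 8 had a mean 0 h signal of 800 or more.

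The share lost more slowly was larger among the brightest members than among dimmer ones, which was not tested. Of the 41 Zfp genes with a geometric mean 0 h signal of 800 or more, 6 were lost more slowly in CNOT3KD MEFs. That is 14.6%, the same share as in the 5133 genes of that brightness. However, 56.1% of these 41 Zfp genes were fast-lost at 12 h in control MEFs, against 20.3% of all genes of that class. Of the genes so lost, 26.1% of Zfp genes met the rule, against 64.7% of all genes. The median left of the 41 was 20.1% in control and 32.5% in CNOT3KD MEFs at 12 h. All genes of that class had 83.0% and 106%. In the class from 400 to 800 1 of 41 Zfp genes met the rule (16.8% of all genes there), and from 200 to 400 3 of 70 did (12.4%). From 100 to 200 it was 2 of 46 Zfp genes (6.53%). Fast loss was found in each class: the Zfp median at 12 h in control MEFs lay between 20.1% and 33.1% in the 4 classes, each time below that of all genes, which lay between 51.9% and 83.0%.

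A minority of Zfp mRNAs was kept. At 12 h 75% or more was left in both cultures for 13 Zfp genes, 6.57%, against 44.4% of all genes. These were Zfp91, Zfp106, Zfp219, Zfp276, Zfp365, Zfp444, Zfp560, Zfp580, Zfp593, Zfp687, Zfp692, Zfp931 and Zfp938. Other probe sets disagreed for Zfp560, where one had 14.2% left at 12 h in control and was near background in CNOT3KD MEFs, and for Zfp276, where one had 56.5% and 22.6% left and one 38.9% and 51.5%. Zfp106, an RNA-binding protein needed for motor neuron and muscle function, had 1924, 2769 and 3331 in control MEFs and 1776, 2154 and 1925 in CNOT3KD MEFs. Zfp593, a factor in assembly of the large ribosomal subunit, had 1634, 1853 and 1728 in control MEFs and 1338, 1951 and 2011 in CNOT3KD MEFs. Zfp91, a ubiquitin ligase of NF-kB signalling, had 2229, 2622 and 2529 in control MEFs and 2004, 1870.5 and 1763 in CNOT3KD MEFs. The lowest value among these 3 was 88.0% left, for Zfp91 at 12 h in CNOT3KD MEFs. A second probe set of Zfp106 and of Zfp91 kept 91.0% or more at 12 h in both cultures.

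By role, the members that act on RNA and ribosomes had the most left among the 5 lists. All 8 were measured, and their median left at 12 h was 58.7% in control and 81.3% in CNOT3KD MEFs, with a median stabilization of 0.42. Beside Zfp622, Zfp638, Zfp106 and Zfp593 they were Zfp326, Zfp346, Zfp598 and Zfp830. Zfp598, the ubiquitin ligase that recognises collided ribosomes, had 703, 441 and 401 in control MEFs and 664, 484 and 554 in CNOT3KD MEFs. Zfp326, a protein of messenger ribonucleoprotein particles and transcript elongation, had 60.4% left at 12 h in control and 98.5% in CNOT3KD MEFs. Zfp346, which binds double-stranded RNA, had 69.9% and 79.2%. Zfp830, a splicing-associated protein, stood apart in this group, with 12.6% left at 12 h in control and 9.30% in CNOT3KD MEFs. Its other probe sets at the limit had 59.5% and 102% left in control and 22.0% and 20.5% in CNOT3KD MEFs.

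Of 14 listed regulators of lineage and development 11 were measured, Zfp423 and Zfp467 were under the signal limit, and Zfp609 was not named on the array. Their median left at 12 h was 13.7% in control and 15.4% in CNOT3KD MEFs, and their median stabilization was 0.08. None met the rule in either direction, where 13.8% and 0.541% of all genes did. With 11 genes a count of 0 lies close to these shares. At 12 h 6 of 11 were fast-lost in control and 8 in CNOT3KD MEFs (20.7% and 6.55% of all genes), and 6 in all 4 arrays under Act. D (2.93%). Zfp521, a regulator of progenitor cells of blood, fat and bone, had 1328, 199.5 and 119 in control MEFs and 1432, 302 and 220.2 in CNOT3KD MEFs. Zfp703, a repressor closely related to Zfp503, had 11.6% left at 12 h in control and 15.3% in CNOT3KD MEFs. Zfp516, a factor of brown fat, had 13.7% and 12.1%, and Zfp407 had 8.01% and 4.37%. Zfp217, a repressor known as an oncogene, had 408, 60.8 and 34.3 in control MEFs and 476, 5.99 and 35.9 in CNOT3KD MEFs, where only the 6 h value was near background. Zfp281, a pluripotency factor, had 1348, 608 and 843 in control MEFs and 1275, 312 and 297 in CNOT3KD MEFs, or 62.5% left at 12 h against 23.3%. Its second probe set was fast-lost in both cultures, with 8.31% and 5.96% left and a stabilization of 0.17 in place of -1.15. Zfp148, related to Zfp281, had 46.1% and 38.1%. Its other probe sets at the limit had 35.8% and 43.7%, 35.1% and 33.8%, 30.0% and 45.2%, 47.2% and 35.0%, and 24.9% and 33.0%. The direction of Zfp148 thus depends on the probe set. Zfp462 had 31.7% and 16.6%, and at its second probe set 11.9% and 15.6%. Zfp335, needed in neural progenitors, had 41.0% and 41.8%, and Zfp219 had 79.8% and 76.5%.

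Of 7 members that guard imprints or silence retroelements, 4 were measured. Zfp57 and Zfp42, which are active in early embryonic cells, and Zfp819 were under the limit, with 0 h signals of at most 40.0 in either culture. Zfp445, a keeper of genomic imprints, had 1994, 294 and 319 in control MEFs and 1251, 161 and 156 in CNOT3KD MEFs. Zfp568, a repressor of a placental transcript of Igf2, had 729, 99.3 and 93.4 in control MEFs and 489, 60.1 and 55.1 in CNOT3KD MEFs. Both had close to the same percentage left at 12 h in the 2 cultures, 16.0% and 12.5% for Zfp445 and 12.8% and 11.3% for Zfp568. Zfp809, which recognises retroviral DNA, had 39.1% left at 12 h in control and 40.1% in CNOT3KD MEFs, and 43.2% and 22.0% at 6 h. With Zfp932 the stabilization of all 4 was below 0, with a median of -0.37.

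The 3 zinc finger proteins of the Z3 chromatin complex, Zfp532, Zfp592 and Zfp687, did not share a course. At 12 h Zfp532 had 24.3% left in control and 23.4% in CNOT3KD MEFs, Zfp592 had 44.1% and 40.4% (23.4% and 26.2% or 65.7% and 21.8% at its other probe sets), and Zfp687 had 108% and 78.4%. Of 9 other members of known role 7 were measured, and Zfp143 and Zfp260 were not named on the array. Zfp207, a spindle and kinetochore protein of mitosis, had 4062, 3121 and 1954 in control MEFs and 3581, 3329.6 and 3454 in CNOT3KD MEFs. At this probe set 48.1% was left at 12 h in control and 96.5% in CNOT3KD MEFs. A pair of dimmer Zfp207 probe sets at the signal limit went the other way, one with 25.3% left in control and 8.90% in CNOT3KD MEFs and one near background at 12 h in CNOT3KD MEFs, at 9.65 against 130 in control. With the median over probe sets the stabilization of Zfp207 was -0.45 in place of 0.64, so its direction depends on the probe set. Zfp110 and Zfp369, related factors that bind a neurotrophin receptor, had 15.6% and 35.7% left at 12 h in control and 25.1% and 38.1% in CNOT3KD MEFs. Zfp384, a DNA-binding regulator of matrix genes, had 49.3% and 59.0%.

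Partners of KRAB zinc finger proteins were also listed. Of 25 listed genes 22 were named and 21 measured, with a median of 43.3% left at 12 h in control and 80.7% in CNOT3KD MEFs and a median stabilization of 0.43. Of these 21, 4 (19.0%) were lost more slowly in CNOT3KD MEFs and 0 faster (13.8% and 0.541% of all genes), and no difference from the Zfp genes was tested. Trim28, the common corepressor, had 4099, 3767 and 3181 in control MEFs and 4009.8, 4044 and 3882 in CNOT3KD MEFs, so it was kept in both. Setdb1, the methyltransferase it recruits, had 777, 216 and 194 in control MEFs and 770.1, 456 and 477 in CNOT3KD MEFs, a stabilization of 1.20. The most stabilized partners were Mphosph8, a reader of silenced chromatin, at 2.94, Morc3 at 2.08 and the remodeller Smarcad1 at 1.73. Mphosph8 had 10.7% left at 12 h in control and 103% in CNOT3KD MEFs. Atf7ip and Morc2a, also partners, were fast-lost in both cultures, with 12.7% and 10.1% left at 12 h in control and 10.0% and 15.4% in CNOT3KD MEFs. The least stabilized were Chd3, Hdac1 and Atrx, at -0.60, -0.55 and -0.45, with 119% or more left in control MEFs at 12 h.

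Before Act. D, Zfp signals tended to be lower in CNOT3KD MEFs. The median log2 fold of CNOT3KD over control at 0 h was -0.15 for Zfp genes and 0.08 for all genes. More than 1.5-fold lower were 33 of 198 Zfp genes, 16.7%, against 5.92% of all genes. More than 1.5-fold higher was 1, Zfp61, where the background was 10.5%. In bulk RNA, fewer cells of a type and less RNA per cell cannot be told apart. Markers of other cell types also differed at 0 h. All 8 named leukocyte markers had a higher value in CNOT3KD MEFs, with a summed signal of 2351 in control and 3510 in CNOT3KD MEFs, of which 6 reached the signal limit and Cd3e was near background in both arrays, at 13.3 and 16.4. All 6 epithelial markers had a higher value, with sums of 701 and 1269.5, but 2 of 6 reached the signal limit, Krt5 was about level at 67.9 and 70.5, and Krt14 and Cdh1 were near background in control MEFs, at 9.92 and 8.35. All 4 muscle markers had a higher value, with sums of 3584 and 6437 and 2 of 4 at the limit. Most of these sums was Acta1, at 3337 and 6105, while Myod1 was at 21.1 and 26.6 and Myog at 21.8 and 37.2. Of 4 endothelial and 4 neural markers, 1 each was higher. The part of these differences in the 0 h result was not tested.

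**Figure D4:**
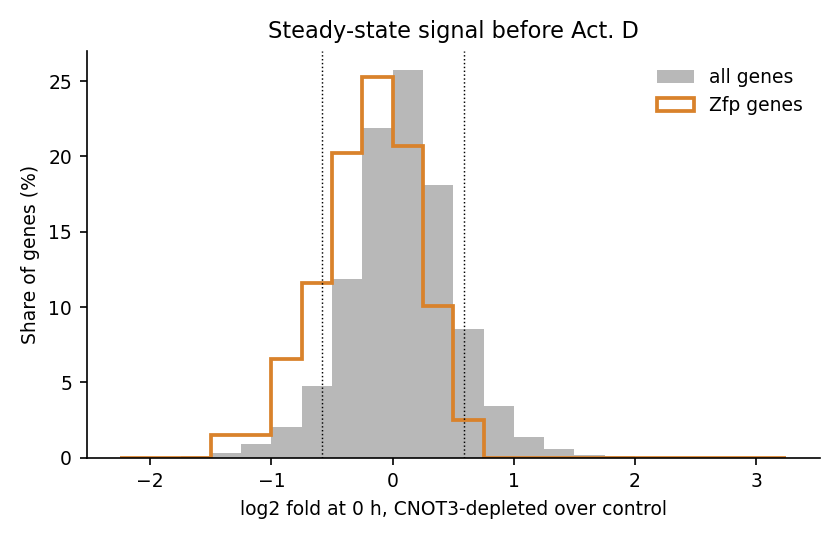
Share of genes (%, vertical axis) by log2 fold of CNOT3KD over control MEFs at 0 h, in bins of equal width, for all 9980 genes (grey) and the 198 Zfp genes (orange outline). Dotted lines mark 1.5-fold in either direction; the orange outline is shifted to the left, with 33 Zfp genes below the left line and 1 above the right line.

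Zfp367 had the largest difference of this kind. Its signal at 0 h was 1136 in control and 418 in CNOT3KD MEFs, 2.72-fold lower, while 59.1% was left at 12 h in control and 112% in CNOT3KD MEFs. It was thus lower at 0 h and not lost faster under Act. D. Zfp472 was at 304 and 126, Zfp263 at 653 and 274 and Zfp81 at 329 and 145. Zfp101 was at 420.3 and 193, and Zfp871 at 1721 and 848. A second probe set of Zfp263 was also lower, at 391 in control and 230.4 in CNOT3KD MEFs, and both further probe sets of Zfp871 were lower too. Zfp61 was at 172 in control and 282 in CNOT3KD MEFs, 1.64-fold higher, and next came Zfp212, Zfp82, Zfp688, Zfp346 and Zfp414, all below 1.5-fold. Of the 12 genes lost more slowly in CNOT3KD MEFs, none was more than 1.5-fold higher at 0 h. Among all 198 Zfp genes it was 1, and 10.5% of all genes, so this count says little about the 12. Of the same 12, Zfp451 and Zfp763 were more than 1.5-fold lower, against 16.7% of Zfp genes and 5.92% of all genes. Both 0 h arrays enter both rules, so the calls are linked. With the median over probe sets Zfp763 had a log2 fold at 0 h of 0.27 and a stabilization of -0.32. Both of its directions thus depend on the probe set.

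Other zinc finger families offer a comparison. For 29 Zbtb genes, whose proteins carry a BTB domain, the median left at 12 h was 36.3% in control and 28.8% in CNOT3KD MEFs, and the median stabilization was 0.00, with 2 of 29 lost more slowly and 3 faster in CNOT3KD MEFs (13.8% and 0.541% of all genes). For 10 Zscan and Zkscan genes, with a SCAN domain, it was 21.7% and 25.2%, with a stabilization of 0.17, and 0 of 10 met either rule. For 11 Klf genes, the Kruppel-like factors, it was 15.3% and 28.6%, with a stabilization of 1.05, and 4 of 11 were lost more slowly in CNOT3KD MEFs, or 2 of 11 with the ratio limit (11.3% of all genes). At 12 h in control MEFs 31.0% of the Zbtb, 60.0% of the Zscan and Zkscan and 72.7% of the Klf genes were fast-lost, against 48.0% of the Zfp genes and 20.7% of all genes. These differences between families were not tested.

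Since many Zfp genes lie side by side, members were grouped by gene order. A run was taken as Zfp genes with no more than 2 other protein-coding genes between neighbours, and 301 members had a place in the order. Of these, 72 lay in 8 runs of 5 or more, 102 in runs of 2 to 4, and 127 in no run. In the long runs, the 42 measured members had a median of 21.4% left at 12 h in control and 16.1% in CNOT3KD MEFs, and 21 of 42 were fast-lost in all 4 arrays. In short runs the 66 measured members had 25.4% and 25.1%, with 20 of 66 fast-lost throughout. Outside runs the 89 measured members had 28.5% and 24.9%, with 19 of 89 fast-lost throughout. Genes outside runs held 9 of the 12 lost more slowly in CNOT3KD MEFs and 8 of the 13 kept in both. That is 10.1% and 8.99% of the 89, against 13.8% and 44.4% of all genes. These shares were 4.76% and 2.38% in long runs and 1.52% and 6.06% in short runs. Genes outside runs were also brighter, with a median 0 h signal in control MEFs of 456, against 272 in long and 361 in short runs. The part of brightness in these counts was not tested.

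**Figure D5:**
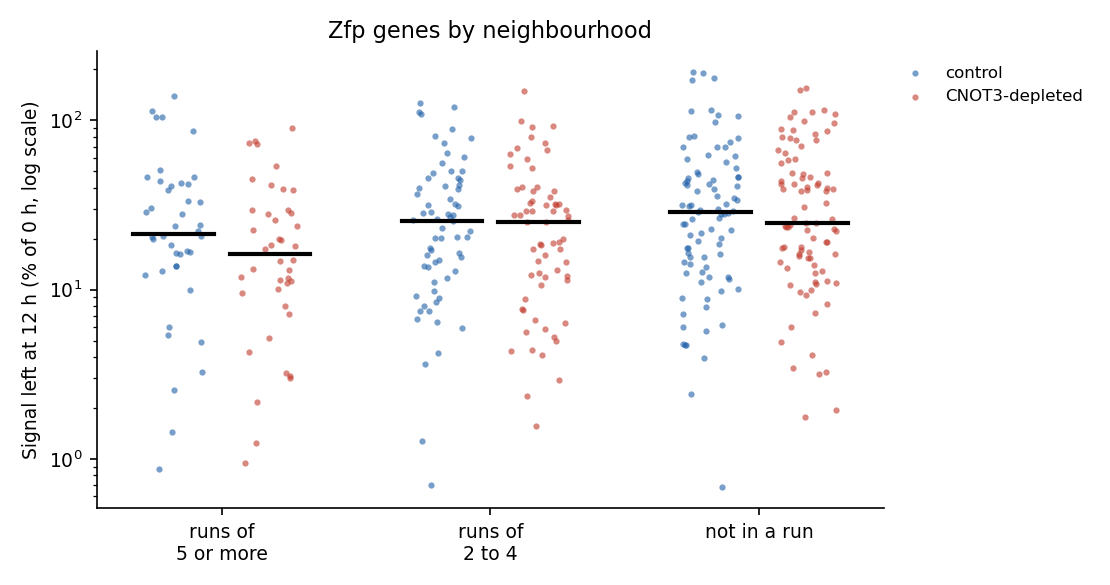
Signal left at 12 h of Act. D (% of 0 h, log scale) for each measured Zfp gene, in runs of 5 or more, in runs of 2 to 4 and in no run, in control (blue) and CNOT3KD MEFs (red). Black bars are medians, at 21.4% and 16.1% for long runs, 25.4% and 25.1% for short runs and 28.5% and 24.9% outside runs. The ranges overlap widely, and values above 100% are found in each class in control MEFs.

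The longest run, from Zfp677 to Zfp946, had 17 members of which 16 were measured. At 12 h 11 of these were fast-lost in control and 14 in CNOT3KD MEFs (20.7% and 6.55% of all genes, 48.0% and 53.5% of Zfp genes). The values ran from 12.2% to 46.4% in control MEFs and from 3.07% to 38.9% in CNOT3KD MEFs. In the run from Zfp84 to Zfp566 7 of 8 measured members were fast-lost at 12 h in CNOT3KD MEFs and 6 of 8 in control MEFs, among them Zfp568 and Zfp74. The runs from Zfp712 to Zfp429, Zfp579 to Zfp580 and Zfp60 to Zfp850, with 2, 3 and 1 measured members, had none fast-lost at 12 h. Over all 8 long runs 57.1% of the 42 measured members were fast-lost at 12 h in control and 66.7% in CNOT3KD MEFs. In the run from Zfp871 to Zfp563 4 of 5 measured members were more than 1.5-fold lower at 0 h in CNOT3KD MEFs, namely Zfp871, Zfp799, Zfp472 and Zfp763 (5.92% of all genes). This run was picked out after the values were seen. Over all 8 long runs 6 of 42 were, 14.3%, against 16.7% of all Zfp genes. With the median over probe sets Zfp763 was not lower, at a log2 fold of 0.27. Tandem Zfp genes are alike in sequence, and probes for one may bind mRNA of another. By the array's own naming, the probe sets of 16 measured members hold probes that also match other transcripts. The other 182 had a median of 27.1% left at 12 h in control and 22.7% in CNOT3KD MEFs, against 20.4% and 26.4% for the 16.

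Second probe sets allow a check within the arrays. The 304 members had 574 probe sets, and 56 measured members had a second one at the signal limit. The median left at 12 h at the second probe set was 24.2% in control and 24.97% in CNOT3KD MEFs, and at the brightest probe set of the same genes 26.4% and 25.8%. The typical loss was thus alike. For single genes it was less so: 25 of the 56 were fast-lost at 12 h in control MEFs at the brightest probe set, 29 at the second, and 16 at both. Stabilization had the same sign at both probe sets in only 30 of 56. The direction given for a single gene at its brightest probe set is therefore uncertain. The rule for slower loss was met by 4 at the brightest probe set and by 2 of these, Zfp622 and Zfp638, at both.

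The other 106 members were not followed under Act. D. Of these, 79 were below the limit in both 0 h arrays, 19 reached it in control MEFs alone and 8 in CNOT3KD MEFs alone, and their median signals at 0 h were 57.7 and 51.4. The last members within the limit were Zfp595, at 117 and 100.3, and Zfp963, at 100.6 and 113. The first outside it were Zfp953, at 97.7 and 107, and Zfp182, at 108 and 99.6.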

How the data were processed

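Total RNA of 6 cultures was labelled as biotinylated cRNA and hybridized to Affymetrix arrays for the mouse genome. The deposited values are MAS5 intensity signals per probe set, computed by the authors on a linear scale and used as deposited. Neither the MAS5 version nor its scaling target is stated in the sources. Here, signals under 1 were set to 1, and 34945 of 45037 probe sets with exactly 1 symbol in the platform annotation were kept. Of several probe sets of a gene, the one brightest on average (log2) over the arrays was used. All 304 members were found in RefSeq (GRCm38.p6, used for names and gene order only), and 27 probe sets with several symbols including a Zfp gene were left out. Percentages left, stabilization and folds were computed with pandas 2.3.3 and numpy 2.4.6, and figures drawn with matplotlib 3.10.9. Genes were named by rank (highest signal, least left, most and least stabilized, largest differences at 0 h), by role list, as meeting a counting rule, or beside the signal limit; others named as examples were chosen after their values were seen. Members, lists and rules were chosen with earlier results of these data known. Alternatives were quantile normalization, scaling to 49 ribosomal protein genes, a 25th percentile floor, the median over probe sets, signal limits of 50 and 200, and a limit on the 6 h to 0 h ratio. The counting rules were also run on simulated data with planted differences, which checks the computation and not the Zfp results. The number of arrays limits the precision.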

Additional observations from a re-analysis of the deposited data

How the results depend on the processing

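The counts of fast-lost Zfp genes at 12 h stayed within 1.5 times the reported values in both cultures under every alternative run on them. Scaling each array to ribosomal protein genes moved the median stabilization of Zfp genes to 0.50 and that of all genes to 0.66. It put 31 Zfp genes (15.7%, against 24.3% of all genes) among those lost more slowly in CNOT3KD MEFs. Among those lost faster it put 3 (1.52%, against 0.100% of all genes). It also moved the Zfp medians left in control MEFs to 19.3% at 6 h and 15.9% at 12 h. The median log2 fold at 0 h moved to -0.074 (0.15 for all genes), and the number more than 1.5-fold higher to 5 (2.53%, against 13.9% of all genes). Quantile normalization gave Zfp medians of 38.3% and 36.9% left in control and 36.2% and 32.0% in CNOT3KD MEFs at 6 h and 12 h, where all genes had 104%, 94.3%, 104% and 105%. With the median over probe sets 30.4% was left at 12 h in control MEFs and 7 genes were more than 1.5-fold higher at 0 h (11.1% of all genes). That count was 7 with a signal limit of 50 (11.9% of all genes) and 0 with a limit of 200 (8.95%). With the limit of 200, 20 were more than 1.5-fold lower (5.35% of all genes). The ratio limit left 6 genes lost more slowly and 1 lost faster (11.3% and 0.261% of all genes). The cause of these shifts was not tested. Of the 12 genes lost more slowly, 10 were shared under quantile normalization (without Zfp410 and Zfp637), 9 with the 25th percentile floor and 8 with the median over probe sets (without Zfp410, Zfp451, Zfp638 and Zfp763). Of the 8 genes lost faster, 7 were shared under quantile normalization and 3 after ribosomal protein scaling. With the 25th percentile floor 7 were shared, and with the median over probe sets 5. The share of Zfp genes fast-lost at 12 h in control MEFs that were also so in CNOT3KD MEFs was 72.6% after quantile normalization and 76.1% after ribosomal protein scaling, against 21.4% and 20.6% of all genes. No paired analysis was possible because each condition has 1 array, and leaving out a replicate could not be done for the same reason. The background of the arrays limits percentages left of dim genes.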
